A study of Ovis aries with 24 samples.

Results

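The genes described here are 3 markers of mast cells and eosinophils on arrays of sheep great vessels: TPSB2, the mast cell tryptase, which the array lists as TRYPTASE-1; FCER1A, the alpha chain of the high-affinity receptor for immunoglobulin E (IgE); and CCR3, the chemokine receptor known best from eosinophils. Probes were taken by the gene symbol assigned to them, and their descriptions were not searched. This gave 2 probes per gene, or 3 of the 672 genes that could be named and 6 of the 15008 probes on the array. All 6 were among the 13997 probes tested, a set limited to probes that 4 or more of the 24 arrays read as well above background. The 3 genes were chosen by their measured levels and differences on these same arrays, so their values are a description and carry no test. Adjusted p-values are given only for other genes; for the members, the calls are listed once beside the background share, and nothing is read from them.

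Mast cells are long-lived tissue cells that lie around vessels and store tryptase, chymase, histamine and heparin in granules. IgE held by the FCER1A chain, with the signalling chains MS4A2 and FCER1G, sets off the release of those granules when antigen crosslinks it. CCR3 answers eotaxins and related chemokines and draws eosinophils, and also basophils and some mast cells, out of the blood into tissue. These functions are background and were not measured.

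RNA came from the ductus arteriosus, the fetal vessel between the pulmonary artery and the aorta that closes after birth, and from a nearby segment of ascending aorta. Both vessels were taken at 3 stages: preterm (97 days of gestation), near term (136 days) and newborn (12 hours after birth). The sample titles give 100 and 140 days for the fetuses. Each of the 6 groups held 4 arrays (n = 4 everywhere below) from 4 animals, of which no strain, sex or treatment is named in the labels; all ewes and lambs were killed with pentobarbital and phenytoin. Whole vessel segments were used, so fewer cells of a type and less RNA per cell cannot be told apart.

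Some features of the arrays touch every value. Each stage lay on a slide of its own with 8 arrays, and the ductus and aorta samples lay in different columns of the slides, so a stage cannot be told apart from its slide, nor a vessel from its column. The lowest spike-in control that could be detected differed between arrays: its log10 limit was above 1.5 on 12 arrays, namely 3 preterm aorta, 3 near-term aorta, 2 newborn aorta, 2 preterm ductus, 2 near-term ductus and 0 newborn ductus arrays. Levels are log2 of the processed signal minus the log2 of the 75th percentile of the array (322.1 to 1143 in signal units), so a level of 0 is a signal equal to that percentile. On this scale the median of all tested probes itself differed between the groups compared, by -0.31 to 0.22, and member differences can be read against it. The share of all probes whose arrays did not overlap between groups is not given here. Where arrays are said not to overlap, nothing is read from it. Smooth muscle markers fitted the labelled tissue: the summed signal of CNN1 and MYLK was 43.5 to 197 times the percentile, the lowest from MYLK alone because CNN1 was an outlier spot on near-term aorta replicate 3.

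TPSB2 was the member with the clearest pattern: before birth the ductus stood above the aorta, the near-term ductus was highest, and both vessels were lower in newborns. In the near-term ductus the 4 arrays of the brighter probe read 3.61, 3.78, 3.65 and 4.09, a mean of 3.78 ± 0.22 (SD), or 13.8 times the 75th percentile. In the near-term aorta they read 2.61, 2.09, 2.60 and 2.97, a mean of 2.57 ± 0.36 or 5.94 times the percentile. Every near-term ductus array was above every near-term aorta array.

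The preterm vessels stood in the same order with a smaller gap. Preterm ductus arrays read 3.52, 3.1, 3.01 and 3.45 (mean 3.27 ± 0.25), and preterm aorta arrays 3.14, 2.24, 2.29 and 2.74 (mean 2.60 ± 0.42). Preterm aorta replicate 1 lay within the ductus range, and the other 3 aorta arrays lay below it.

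After birth TPSB2 was low in both vessels. The newborn ductus read 2.02, 1.08, 1.96 and 1.52 (mean 1.64 ± 0.44), and the newborn aorta 1.55, 0.57, 1.56 and 1.55 (mean 1.31 ± 0.49). The highest of the 8 newborn arrays, at 2.02, was below the lowest of the 16 fetal arrays, at 2.09. The other probe also kept all newborn arrays (highest 2.00) below all fetal arrays (lowest 2.04). Both gaps were smaller than the shift in the median of all tested probes at birth. That shift was -0.31 in the ductus and -0.24 in the aorta. The share of all probes that separated newborn from fetal arrays is not given here, so nothing is read from the separation.

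**Figure D1:**
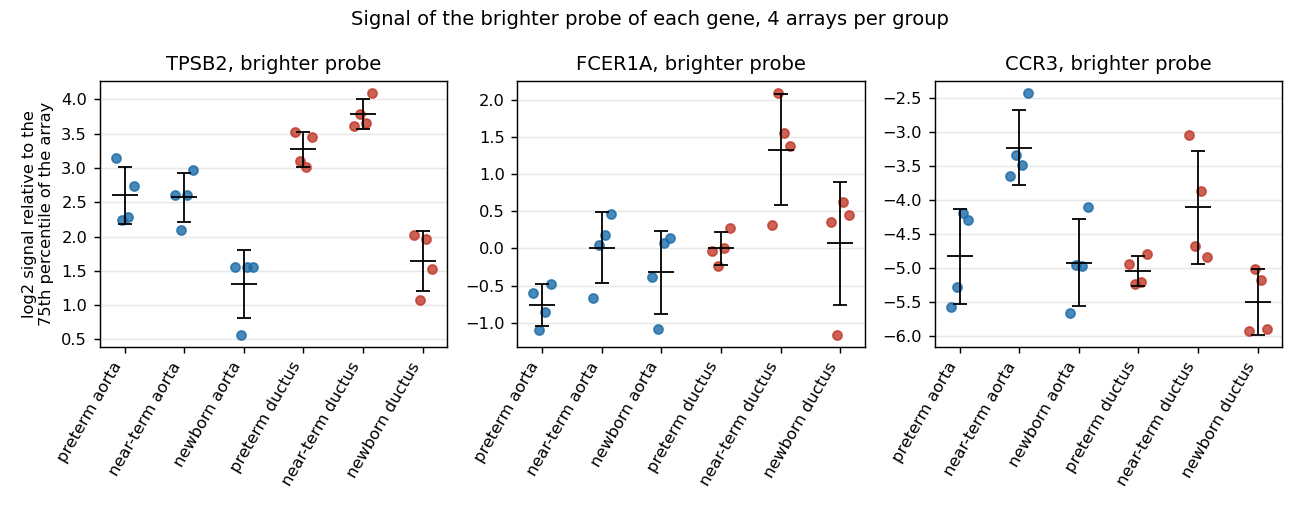
Level of the brighter probe of TPSB2, FCER1A and CCR3 in each of the 6 groups, as log2 signal relative to the 75th percentile of the array; each point is 1 of 4 arrays, blue for aorta and red for ductus, and black bars are the mean and SD. TPSB2 lies lower on all 8 newborn arrays (highest 2.02) than on any fetal array (lowest 2.09). FCER1A is highest in the near-term ductus (mean 1.33), and CCR3 is highest in the near-term aorta (mean -3.23).

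In order of group means, TPSB2 ran from near-term ductus to preterm ductus, preterm aorta, near-term aorta, newborn ductus and newborn aorta. The step from near-term to preterm ductus was 0.51, that from preterm ductus to preterm aorta 0.67, and that from near-term aorta to newborn ductus 0.93, each larger than the larger SD of its 2 groups. The preterm and near-term aorta differed by 0.03, and the newborn ductus and aorta by 0.34; neither gap exceeded the larger SD of its groups. With the other probe the 2 fetal aorta groups changed places, 0.05 apart, and the newborn ductus stood 0.52 above the newborn aorta, with an SD of 0.49.

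Between the vessels, TPSB2 was 2.32-fold higher in the near-term ductus (log2 difference 1.21 ± 0.27, standard error of the fit) and 1.59-fold higher in the preterm ductus (0.67 ± 0.27). In newborns the difference was 0.34 ± 0.27. On the 12 arrays with the lower spike-in limit, where the preterm and near-term aorta keep 1 array each, the preterm difference was -0.08. The near-term difference lay between 1.05 and 1.35 under the 18 alternatives run.

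At birth TPSB2 was 4.41-fold lower in the ductus (-2.14 ± 0.27) and 2.4-fold lower in the aorta (-1.26 ± 0.27). Newborn and near-term arrays did not overlap in either vessel with either probe. The share of all probes that did not overlap is not given, so nothing is read from this. The ductus change minus the aorta change was -0.88 ± 0.38 with the brighter probe and -0.66 ± 0.38 with the other. Between preterm and near term TPSB2 stood 0.51 ± 0.27 higher in the ductus and differed by -0.03 ± 0.27 in the aorta.

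FCER1A was present in all groups, well above background on 24 of 24 arrays, and its highest group was the near-term ductus. There the brighter probe read 0.31, 2.09, 1.55 and 1.38, a mean of 1.33 ± 0.75 or 2.52 times the percentile. The near-term aorta read -0.67, 0.05, 0.18 and 0.46 (mean 0.01 ± 0.48). Near-term ductus replicate 1 lay within the aorta range and the other 3 ductus arrays lay above it.

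With the brighter probe the preterm vessels were the least variable. Preterm ductus arrays read -0.04, -0.24, 0.01 and 0.28 (mean 0.00 ± 0.22), all above the preterm aorta at -0.60, -1.10, -0.86 and -0.48 (mean -0.76 ± 0.28). With the other probe the preterm vessels overlapped, since replicate 2 of the preterm ductus read -1.34 and the preterm aorta -1.71 to -0.78.

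In newborns FCER1A spread widely. The newborn ductus read 0.36, -1.16, 0.63 and 0.45 (mean 0.07 ± 0.83) and the newborn aorta -0.39, -1.09, 0.07 and 0.14 (mean -0.32 ± 0.56). Replicate 2 was the lowest array in both newborn vessels, as it was for TPSB2, although the labels do not say that a shared number marks an animal.

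The order of FCER1A group means was near-term ductus, newborn ductus, near-term aorta, preterm ductus, newborn aorta and preterm aorta. The step from the near-term ductus to the next group was 1.26, larger than the larger SD of 0.83. All other neighbours lay 0.00 to 0.44 apart and did not differ beyond their spread.

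FCER1A was 2.51-fold higher in the near-term ductus than in the near-term aorta (1.33 ± 0.39). The near-term ductus stood by the same amount above the preterm ductus (1.33 ± 0.39). The 4 and 4 ductus arrays did not overlap with either probe. The closest of them read 0.31 and 0.28 with the brighter probe, and 0.01 and -0.13 with the other. The median of all tested probes was itself 0.22 higher in the near-term ductus, so nothing is read from that separation. At birth FCER1A stood 2.4-fold lower in the ductus (-1.26 ± 0.39) with overlapping arrays. Without newborn ductus replicate 2 that difference was -0.85, and with the other probe -1.0 ± 0.38. In the aorta the differences were 0.76 ± 0.39 from preterm to near term and -0.32 ± 0.39 at birth. Preterm ductus and aorta differed by 0.76 ± 0.39 and the newborn vessels by 0.39 ± 0.39. On the 12 arrays with the lower limit the near-term vessel difference was 2.41 and the aorta difference between fetal stages -0.07.

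CCR3 was dim and had another order: its highest group was the near-term aorta. The brighter probe read -3.65, -3.34, -3.49 and -2.43 there, a mean of -3.23 ± 0.55 or 0.107 times the percentile. The near-term ductus read -3.04, -4.68, -3.87 and -4.84 (mean -4.11 ± 0.83), so that replicate 1 of the ductus lay inside the aorta range and the other 3 arrays lay below it.

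The other groups were lower. Preterm aorta arrays read -5.57, -5.28, -4.19 and -4.29 (mean -4.83 ± 0.70), and newborn aorta arrays -5.66, -4.96, -4.97 and -4.10 (mean -4.92 ± 0.64). Preterm ductus arrays read -4.94, -5.24, -5.21 and -4.80 (mean -5.05 ± 0.22), and newborn ductus arrays -5.93, -5.02, -5.17 and -5.89 (mean -5.50 ± 0.48). All 4 near-term aorta arrays lay above all preterm and all newborn aorta arrays.

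Detection of CCR3 differed between the groups without following the order of their means. The brighter probe passed the background test on 19 of 24 arrays. Among these were 4 of 4 in the near-term aorta and preterm ductus and 2 of 4 in the newborn ductus. In every other group it passed the test on 3 of 4 arrays. The other probe did so on 10 arrays, 4 of them in the near-term aorta and 0 in either newborn group; the near-term aorta alone would have met the filter. CCR3 also moved with the spike-in limit: the correlation of its level with that limit was 0.67 within groups, against -0.07 for TPSB2 and 0.06 for FCER1A. The newborn ductus held no array with the higher limit, and the part of the limit in the CCR3 differences at birth was not tested beyond the alternatives given here.

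Of the CCR3 group means, only the near-term aorta stood above its next neighbour, the near-term ductus, by more than the larger SD (0.88 against 0.83). The remaining order, near-term ductus, preterm aorta, newborn aorta, preterm ductus and newborn ductus, had steps of 0.09 to 0.73 that did not exceed the spread.

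In the aorta CCR3 was 3.04-fold higher near term than preterm (1.60 ± 0.41) and 3.24-fold lower in newborns than near term (-1.70 ± 0.41). The other probe was not well above background on any newborn aorta array. For that probe alone the birth difference was at least 3.89-fold by measured signal floors, and -2.53 ± 0.62 as fitted. It is no lower bound for the gene, since the brighter probe gave 3.24-fold. In the ductus CCR3 stood 0.94 ± 0.41 higher near term than preterm and 2.63-fold lower in newborns than near term (-1.40 ± 0.41). Quantile normalisation, which forces all arrays to 1 distribution, brought the ductus difference at birth to -0.01, and normexp background correction brought the aorta difference at birth to -0.83.

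Between the vessels CCR3 differed by -0.21 ± 0.41 in preterm fetuses, -0.88 ± 0.41 near term and -0.58 ± 0.41 in newborns, lower in the ductus each time. Quantile normalisation turned the preterm and newborn differences to 0.43 and 0.48. Near term the other probe gave -2.07 ± 0.62 and normexp background correction -0.13. The ductus change at birth minus the aorta change was 0.30 ± 0.58, and -0.40 with normexp background correction.

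**Figure D2:**
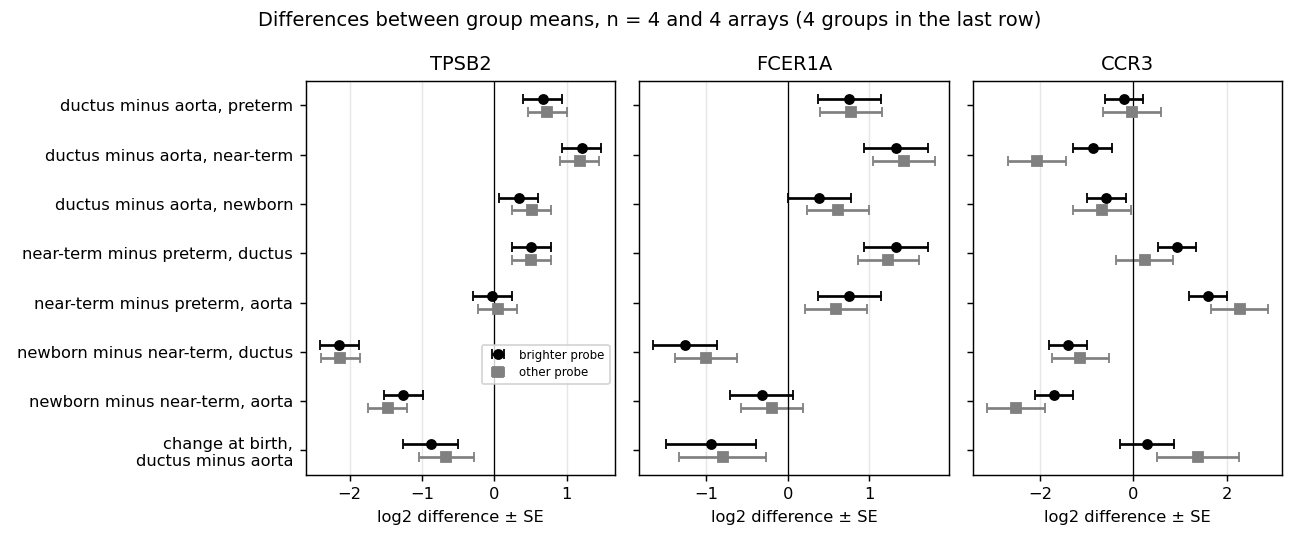
Differences between group means for TPSB2, FCER1A and CCR3 on the log2 scale with the standard error of the fit; black circles are the brighter probe, grey squares the other probe, and each row is 1 comparison of 4 with 4 arrays (the last row takes 4 groups). TPSB2 lies left of 0 in both rows for the change at birth (-2.14 in ductus and -1.26 in aorta), FCER1A is farthest right for the near-term ductus against aorta and against the preterm ductus (1.33 in both), and CCR3 is the gene whose vessel differences lie left of 0.

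Limma with Benjamini-Hochberg adjustment over all tested probes and a threshold of 0.05 gives the background of calls in each comparison, from which nothing is read about genes chosen on these values. For ductus against aorta, 0.707% of probes passed in preterm fetuses and 0 of the 6 member probes; 1.15% passed near term and 2 of the 6, both of TPSB2; and 10.1% passed in newborns and 0 of the 6. For near term against preterm, 0.314% passed in the ductus and 0.493% in the aorta, with 0 of the 6 member probes in each. For newborn against near term, 10.8% passed in the ductus and 6.44% in the aorta, with 4 of the 6 member probes in each. In the ductus these 4 were both probes of TPSB2 and the brighter probes of FCER1A and CCR3, and in the aorta both probes of TPSB2 and of CCR3. For the difference between the 2 changes at birth, 0.393% passed and 0 of the 6. Comparisons that use the near-term groups share those arrays, and so are not separate evidence.

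The probes of each gene moved together across the 24 arrays, with a correlation between them of 0.99 for TPSB2, 0.93 for FCER1A and 0.89 for CCR3. The arrays where CCR3 probes parted were the dim ones: in preterm aorta replicate 1 the other probe read -7.67 where its 3 companions read -5.21, -5.06 and -5.40. Probes of 1 gene share the RNA and the array, so that their likeness says nothing about replicate samples.

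**Figure D3:**
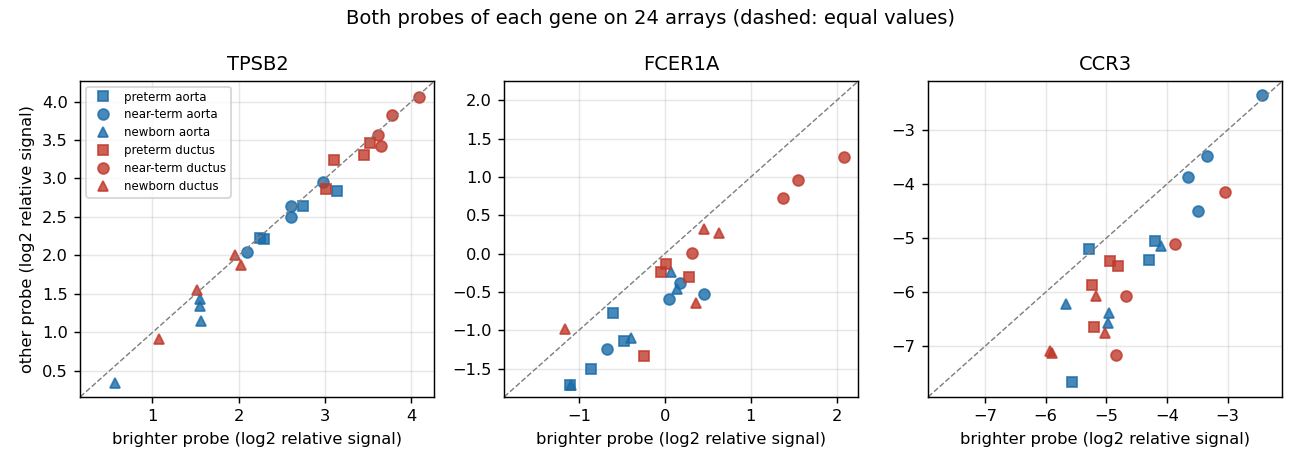
Level of the brighter probe (x axis) against that of the other probe (y axis) of TPSB2, FCER1A and CCR3 on 24 arrays, both as log2 signal relative to the 75th percentile; squares are preterm, circles near-term and triangles newborn, blue is aorta and red ductus, and the dashed line marks equal values. TPSB2 points hug the line (r = 0.99), while CCR3 points scatter at the dim end (r = 0.89).

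Among themselves the members split. TPSB2 and FCER1A correlated with a Pearson r of 0.57 and a Spearman rho of 0.41 over 24 arrays, 0.44 without the 2 arrays farthest from the TPSB2 median, and 0.61 within groups. Within the slides of the 3 stages r was 0.87, 0.78 and 0.87 over 8 arrays each. TPSB2 and CCR3 had r = 0.28 over all arrays and -0.30, -0.56 and -0.32 within the preterm, near-term and newborn slides, which mix both vessels. FCER1A and CCR3 had r = 0.15 over all arrays. These are descriptions over arrays that share slides, with no p.

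By the same measure over 24 arrays, the named genes most like TPSB2 were H2AZ1 (r = 0.82), PMCH (0.80) and APOA1 (0.78), of 639 other named genes tested. H2AZ1, which encodes a histone variant, kept r = 0.66 within groups, while APOA1 had -0.03 and PMCH 0.26.

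FCER1A was most like ALOX5AP (r = 0.73), ALDH1A1 (0.66), a retinaldehyde dehydrogenase, and MX1 (0.64), an interferon-induced gene. ALOX5AP encodes the protein that hands arachidonic acid to 5-lipoxygenase in leukotriene synthesis, a pathway of mast cells and other leukocytes. Its level was highest in the near-term ductus, at -0.82, -0.05, -0.70 and -0.12, and lowest in the newborn aorta, at -1.25, -1.87, -1.51 and -1.11. The correlation with FCER1A was 0.69, 0.75 and 0.61 within the preterm, near-term and newborn slides, and 0.59 within groups. For ALDH1A1 it was 0.74, 0.76 and 0.20 within the slides in that order, and 0.15 within groups. For MX1 it was 0.07, 0.87 and 0.68, and 0.74 within groups. On the 12 arrays with the lower spike-in limit ALOX5AP ranked 1, MX1 4 and ALDH1A1 13 of 639 genes.

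CCR3 was most like LGALS14 (r = 0.84), CD3G (0.84), a chain of the T cell receptor complex, and ADIG (0.82). LGALS14 is galectin-14, which in sheep is known from eosinophils. On the 12 arrays with the lower spike-in limit these correlations were 0.60, 0.70 and 0.43, which ranked 91, 36 and 176 of 639 genes there, so that the ranking did not hold on those arrays. On the other 12 arrays they were 0.91, 0.74 and 0.83. LGALS14 and CD3G also followed the spike-in limit within groups, with correlations of 0.58 and 0.75, against 0.67 for CCR3. The part of that limit in their likeness to CCR3 and in the LGALS14 differences was not tested beyond the alternatives run.

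LGALS14, like CCR3, was highest in the near-term aorta. It read -0.23, -0.82, -2.73 and 1.49 there, and -0.81, -4.99, -3.08 and -6.39 in the near-term ductus; replicate 1 of the near-term ductus was high for both genes. Elsewhere it lay between -8.09 and -2.96. Its newborn and near-term aorta arrays did not overlap, but the closest of them read 0.128 and 0.151 times the percentile. The median of all tested probes differed by -0.24 between these groups, and nothing is read from the separation. LGALS14 passed the test for newborn against near-term aorta, 14-fold lower (log2 difference -3.81 ± 1.11, adjusted p = 0.0455 by limma). That call was lost without any 1 of near-term aorta replicates 1, 2 and 4 and newborn aorta replicates 1, 2 and 3, with an adjusted p of up to 0.137, and also with median centring (0.0809) and only the groups compared (0.155). Near term against preterm it stood 4.33 ± 1.11 higher in the aorta (adjusted p = 0.094), and the ductus stood 3.24 ± 1.11 below the aorta near term (adjusted p = 0.263). A second LGALS14 probe read -0.33, -0.92, -2.87 and 1.45 in the near-term aorta. A further probe of the gene was dim, with -6.99, -6.27, -5.06 and -4.80 there and 1 of 4 arrays well above background; its group mean was also highest there, at -5.78 against -6.32 in the near-term ductus.

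**Figure D4:**
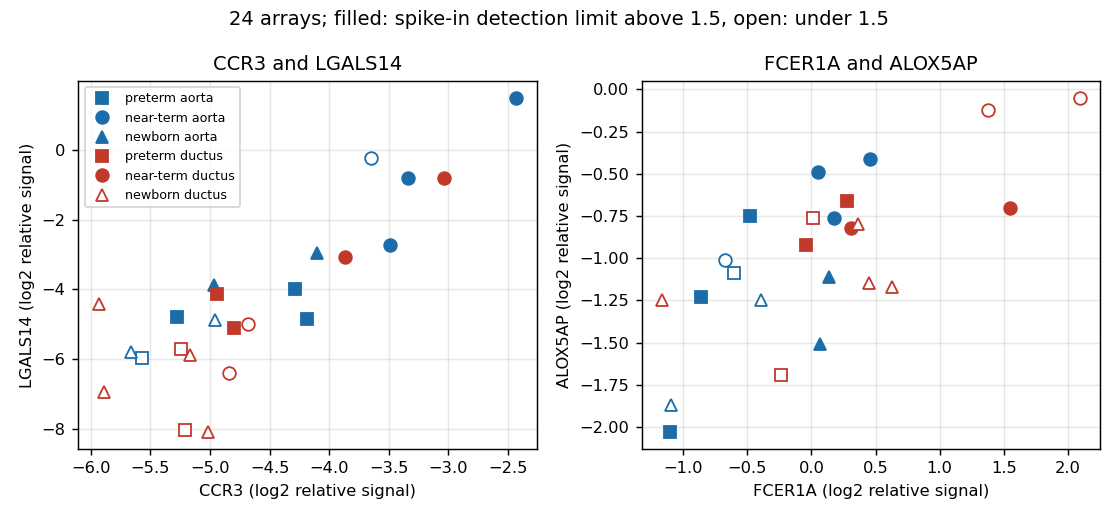
Left, CCR3 against LGALS14, and right, FCER1A against ALOX5AP, as log2 signal relative to the 75th percentile on 24 arrays; squares are preterm, circles near-term and triangles newborn, blue is aorta and red ductus, and filled symbols are arrays with a spike-in detection limit above 1.5. The 4 near-term aorta arrays and replicate 1 of the near-term ductus lie at the upper right for CCR3 and LGALS14 (r = 0.84), and 3 near-term ductus arrays lie farthest right for FCER1A (r = 0.73 with ALOX5AP).

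Few other mast cell and eosinophil markers could be read. Of 16 other genes in the mast cell list, 4 were found on the array: the mast cell proteinase MCP3, the chymase CMA1, the stem cell factor receptor KIT and the IgE receptor beta chain MS4A2. MCP3 was well above background on 22 of 24 arrays, CMA1 and KIT on 12 each and MS4A2 on 9, and KIT and MS4A2 on 0 of 4 newborn ductus arrays. By limma 0 of the 4 passed in any comparison, while 3 of the 4 had an unadjusted p under 0.05 for newborn against near-term ductus. In that comparison 10.8% of all probes passed after adjustment. The share of all probes with an unadjusted p under 0.05 is not given here, so nothing is read from such counts. The median difference of the 4 genes at birth was -2.34 in the ductus, against -0.31 for all tested probes, and -0.76 in the aorta, against -0.24. Between the vessels their median lay below 0, where TPSB2 lay above it. It was -0.65 in preterm fetuses, -0.38 near term and -1.43 in newborns, against -0.20, -0.12 and -0.28 for all tested probes. The 4 genes were split before birth, with 1 above 0 in preterm fetuses, 2 near term and 0 in newborns. By limma 0, 0 and 1 of them had an unadjusted p under 0.05. MCP3, the one read on most arrays, had means of -2.49 in the near-term ductus and -1.24 in the near-term aorta, and its correlation with TPSB2 was -0.13 over 24 arrays and -0.37 within groups. Each of the 4 followed the spike-in limit within groups, with correlations of 0.79 (CMA1), 0.82 (MCP3), 0.87 (KIT) and 0.83 (MS4A2), and the part of that limit in their differences was not tested.

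The IgE receptor list held MS4A2 and FCER1G, the gamma chain that mast cells share with macrophages and other leukocytes. FCER1G was well above background on all 24 arrays and had group means of 0.65 to 1.45, lowest in the preterm aorta and highest in the newborn ductus. It passed no test. At birth it stood 0.48 ± 0.21 higher in the ductus (adjusted p = 0.13) and 0.15 ± 0.21 higher in the aorta (adjusted p = 0.705).

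Of 14 other eosinophil and basophil markers only LGALS14, described above, was on the array, and of 14 CCR3 ligands and eosinophil growth factors 2 could be tested. These were the chemokine CCL28 and the eosinophil growth factor IL5, well above background on 4 and 12 arrays. Neither passed a test in any comparison, and the smallest unadjusted p were 0.0512 for CCL28 (newborn ductus against aorta) and 0.0521 for IL5 (newborn against near-term ductus). Both followed the spike-in limit within groups (0.85 and 0.96).

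In the list of type 2 cytokines and mast cell growth factors, 2 of 6 tested genes passed in any comparison. Their calls fell between the newborn vessels and at birth in the ductus, where 10.1% and 10.8% of all tested probes passed. IL10, an inhibitory cytokine, was 1.73-fold higher in the newborn ductus than aorta (0.79 ± 0.24, adjusted p = 0.0429) and rose 1.72-fold at birth in the ductus (0.78 ± 0.24, adjusted p = 0.0422). Each call was lost on leaving out any 1 of 6 of the 8 arrays, including newborn ductus replicates 1 and 4 and either all newborn aorta or all near-term ductus arrays, with adjusted p up to 0.157 and 0.155. With normexp background correction the ductus difference at birth was -0.11 and the newborn vessel difference 0.30 (adjusted p = 0.567). Quantile normalisation, only the groups compared and the lower-limit arrays also ended both calls, with adjusted p of 0.054 to 0.179. TGFB1, a growth factor that mast cells can activate and respond to, rose 2.02-fold at birth in the ductus (1.02 ± 0.20, adjusted p = 0.00215). KITLG, IL4, IL13 and IL13RA1 passed no test.

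In the list of mast cell mediators and their receptors, 3 of 11 tested genes passed in any comparison. Over the 6 lists of mast cell, eosinophil and related genes, 24 genes other than the members were tested. Of these, 3 passed between the newborn vessels, 3 at birth in the ductus and 2 at birth in the aorta. Of all tested probes 10.1%, 10.8% and 6.44% passed there. In each other comparison 1 of the 24 passed, where 0.314% to 1.15% of all probes did. TIMP1, the inhibitor of matrix metalloproteinases, rose 5.47-fold at birth in the ductus (2.45 ± 0.19, adjusted p = 1.33e-07) and 1.66-fold in the aorta (0.73 ± 0.19, adjusted p = 0.0264). The difference of these changes was 1.72 ± 0.27 (adjusted p = 0.0029), a call lost with median centring (1.80, adjusted p = 0.202) and on the 12 lower-limit arrays (0.98, adjusted p = 0.19). The newborn ductus read 7.31, 7.04, 7.14 and 7.45 against 5.14, 5.46, 4.94 and 4.56 in the newborn aorta, 4.63-fold higher (adjusted p = 4.49e-07). The aorta rise was lost without near-term aorta replicates 1 or 4 or newborn aorta replicates 1 or 2, with an adjusted p of up to 0.1, and with normexp (0.052), quantile normalisation (0.0565), median centring (0.158) and only the groups compared (0.241).

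EDN1, which encodes the precursor of the constrictor endothelin-1, a substrate of mast cell chymase, was higher in the ductus at each stage. The differences were 1.98 ± 0.34 preterm (3.94-fold, adjusted p = 0.00456), 1.53 ± 0.34 near term (2.89-fold, adjusted p = 0.0262) and 1.74 ± 0.34 in newborns (3.33-fold, adjusted p = 0.00266), without overlap. The near-term call was lost without near-term aorta replicates 1 or 4 or near-term ductus replicates 1, 2 or 3 (adjusted p up to 0.115), with normexp (0.76, adjusted p = 0.52) and with only the groups compared (adjusted p = 0.29). On the 12 lower-limit arrays the EDN1 call was lost at each stage, with adjusted p of 0.134, 0.0552 and 0.053. At birth EDN1 differed by 0.21 ± 0.34 in the ductus and 0.01 ± 0.34 in the aorta, neither past the threshold.

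MMP2, the gelatinase whose proform mast cell enzymes can activate, fell between preterm and near term in the ductus (-0.96 ± 0.15, adjusted p = 0.00348) and in the aorta (-0.72 ± 0.15, adjusted p = 0.0279). The ductus call was lost with normexp (adjusted p = 0.0927), median centring (0.0804), only the groups compared (0.241) and the lower-limit arrays (0.242). The aorta call was lost with these and the replicate block (adjusted p of 0.0961 to 0.297), and on leaving out any 1 of the arrays compared other than near-term aorta replicate 4 (adjusted p up to 0.112). ALOX5AP, PTGDS, HRH2, TNF, MMP1, ECE1 and CMA1 passed no test.

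The 7 lists of macrophage, lymphocyte, neutrophil, platelet and red cell, smooth muscle, endothelial and fibroblast markers held 24 tested genes. Of these, 8 passed for newborn ductus against aorta, where 10.1% of all tested probes passed. At birth 3 passed in the ductus (10.8% of all probes) and 3 in the aorta (6.44%). For the difference of these changes 1 passed (0.393%). The fetal comparisons held 0 calls by limma, where 0.314% to 1.15% of all probes passed. By limma the unadjusted p was under 0.05 for 4 and 6 of the 24 between the vessels. It was so for 5 and 5 between the fetal stages. The share of all probes with an unadjusted p under 0.05 is not given here, so nothing is read from these counts. CD14, a macrophage marker, rose in both vessels at birth, by 1.51 ± 0.21 in the ductus (adjusted p = 8.09e-05) and 1.07 ± 0.21 in the aorta (adjusted p = 0.00456). The aorta call was lost with normexp (0.55, adjusted p = 0.217), median centring (0.0518) and only the groups compared (0.162). The summed signal of the 4 macrophage markers was 0.415 to 0.693 times the percentile in the near-term ductus and 1.16 to 1.53 in the newborn ductus. SELP (P-selectin) and C3 rose in the ductus, KDR fell and CNN1 rose in the aorta (CNN1 without near-term aorta replicate 3, an outlier spot), and in newborns CD86, CXCR4, NOS3, SELP, DCN and C3 were higher and the neutrophil peptides CATHL1B and BAC5 lower in the ductus. SELP also differed between the vessels in its change at birth. The calls of CATHL1B, BAC5, KDR, CNN1, CD86, C3 in the ductus at birth and SELP in the difference of changes were lost on leaving out single arrays, from 1 such array for CD86 (newborn ductus replicate 1, adjusted p = 0.0526) to 10 of 16 for SELP, and each also under 2 or more of the other alternatives. CATHL1B and BAC5 were lost with the replicate block (adjusted p = 0.0635 and 0.076), CXCR4 with normexp (0.88, adjusted p = 0.0867), and NOS3 and DCN with only the groups compared (0.0726 and 0.0694). The part of these shifts in the member values was not tested.

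Blood cell markers were read beside CCR3. The summed signal of CD3D, CD3E, CD3G, CD4 and CXCR4 reached 1.97 times the percentile in the near-term aorta, against at most 0.774 in the other groups, but replicate 4 alone carried this and the next array there had 0.606. The 3 neutrophil peptides summed to 0.312 to 1.43 in the near-term aorta, where the next highest array had 1.26. In the near-term ductus they summed to 0.0213 to 0.872, with 0.216 on the next array. The preterm aorta had 0.0605 to 0.945, but replicate 2 alone carried this and the next array had 0.253. The newborn aorta had 0.223 to 0.842, with 0.706 on the next array. CCR3 was low in the preterm and newborn aorta. HBB, the red cell haemoglobin chain, reached 95.8 times the percentile in the near-term aorta on replicate 4 alone, where the next array had 6.81, and at most 16.8 elsewhere. Without that replicate the CCR3 difference in the aorta was 1.34 between the fetal stages and -1.43 at birth. Whether blood held in the segments took part in the CCR3 level was not tested.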

How the data were processed

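Amplified RNA carried the dye Cy3 and each of the 24 samples had an array of its own, per the labels. The authors deposited the linear spot intensity that the scanner software, Agilent Feature Extraction, gives after background subtraction and detrending (version 9.5.3.1, array design 019921, settings GE1-v5_95_Feb07), per the file headers. Any other step by the authors is not given in the sources used here. Among 276 pairs of arrays 0 were identical, with correlations of 0.864 to 0.985 within groups. Replicates are 4 animals per group, per the labels.

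Control spots and outlier spots (2 to 124 per array) were left out, each array's 75th percentile over its 15208 non-control spots was subtracted on the log2 scale, and spots of a probe were averaged. Probes well above background on at least 4 of 24 arrays were kept (13997). The arrays hold well-above-background shares of 66.2% to 94.4%, and their number limits the precision. Limma 3.58.1 (R 4.3.3, lmFit and eBayes) fitted 6 group means, with Benjamini-Hochberg adjustment over all tested probes and a threshold of 0.05, for 8 comparisons; ± after a difference is its standard error. The script was tested on simulated data. A fold is "at least" where a group has 0 arrays well above background: the bright mean against the mean of the higher of each dim array's lowest well-above signal and its own.

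Symbols came from the array's names, from RefSeq (assembly ARS-UI_Ramb_v3.0, names only) and from a table made by hand, giving 672 genes; TRYPTASE-1 is a RefSeq synonym of TPSB2. No probe sequence or position was used. Where a gene had more than 1 tested probe, that with the highest mean stands for it. Whether probes of multigene families (tryptases, MCP3) bind near-identical copies was not tested. Named genes are all member probes, every list gene called in any comparison (or up to 2 with the smallest p in a list with none), and the 3 named genes with the highest correlation per member. The members and the 13 lists were chosen with earlier results of these data known. Other list genes named were chosen after their values were seen, and 1 item is not reported here.

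Alternatives were normexp background correction (offset 50), quantile normalisation, median centring, no filter, a filter of 12 arrays, only the groups compared, a replicate block, the spike-in limit as covariate and leaving out each array. The other probe of a gene and the 12 arrays with a limit under 1.5 were added after seeing the data.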

Additional observations from a re-analysis of the deposited data

Results flagged for a closer look

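In groups of 4 arrays, 14 of 180 had an array far from the other 3; chance gives about 1 in 20, or 9. Replicate 2 was far below the others for TPSB2 in the newborn aorta, at 0.57 against 1.55 to 1.56, and for FCER1A in the newborn ductus, at -1.16 against 0.36 to 0.63. The other FCER1A probe had replicate 2 of the preterm ductus at -1.34, and the other CCR3 probe had replicate 1 of the preterm aorta at -7.67. Among mast cell genes, CMA1 stood high in newborn ductus replicate 3 (-4.31), KIT in near-term aorta replicate 3 (-3.14), and MS4A2 in preterm ductus replicate 1 (-4.81) and newborn ductus replicate 3 (-5.70), while MCP3 stood low in preterm aorta replicate 1 (-3.45). Among cytokine and mediator genes, the low arrays were preterm aorta replicate 1 for IL4 (-5.33), preterm ductus replicate 2 for IL13RA1 (-4.66), near-term aorta replicate 1 for HRH2 (-3.75), near-term aorta replicate 3 for PTGDS (4.65) and newborn aorta replicate 2 for TNF (-4.59).

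The change at birth differed between the vessels for TIMP1, by 1.72 more in the ductus on the log2 scale (limma adjusted p = 0.0029), and for SELP, by 2.61 (adjusted p = 0.0323). The TIMP1 call was lost with median centring (adjusted p = 0.202) and on the 12 lower-limit arrays (0.98, adjusted p = 0.19). The SELP call was lost on leaving out any 1 of 10 of the 16 arrays, with an adjusted p of up to 0.0902, and with normexp (0.514), quantile normalisation (0.178), only the groups compared (0.141) and the lower-limit arrays (0.116).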

How the results depend on the processing

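Of the 24 member differences, 18 kept their sign under every alternative run and 6 did not: TPSB2 and CCR3 between the preterm vessels, CCR3 between the newborn vessels, TPSB2 and FCER1A between the fetal aorta stages, and CCR3 in the difference of the birth changes. On the 12 arrays with a spike-in limit under 1.5, chosen after seeing the data, TPSB2 gave -0.08 (preterm vessels), 0.88 (ductus, near term minus preterm) and -0.52 (aorta, likewise); FCER1A gave 0.48 (preterm vessels), 2.41 (near-term vessels) and -0.07 (aorta, near term minus preterm); and CCR3 gave 0.34 (preterm vessels). There the preterm and near-term aorta had 1 array each, assumed to vary like the other groups. Median centring gave 0.26 for TPSB2 between the ductus stages. For CCR3, quantile normalisation gave 0.43 (preterm vessels), 0.48 (newborn vessels), 0.31 (ductus stages), -0.01 (ductus at birth) and 1.14 (difference of birth changes), and a span of group means of 1.41. Normexp gave -0.13 (near-term vessels), 0.93 (aorta stages), -0.83 (aorta at birth) and -0.40 (difference of birth changes), and the other probe -2.07, 2.28, -2.53 and 1.39 in the same order, with 0.24 for the ductus stages. IL10 turned to -0.11 for the ductus at birth with normexp. The causes were not tested.

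Counts of probes called moved more. Between the preterm vessels the 99 calls became 51 (normexp), 57 (median centring), 33 (only the groups compared), 185 (replicate block) and 378 (limit under 1.5), and 52 to 85 on leaving out an array. Between the near-term vessels the 161 became 46, 50, 40, 263 and 942 in the same order, and 70 to 156. Between the newborn vessels the 1416 became 868, 840 and 371 in the first 3, 853 with the limit under 1.5, and 857 to 1592. Between the ductus stages the 44 became 27, 12, 2, 26 and 0, with 148 for the limit as covariate, and 11 to 54. Between the aorta stages the 69 became 14 (median centring), 12 (only the groups compared), 30 (replicate block), 104 (covariate) and 287 (limit under 1.5), and 18 to 53. At birth the 1515 of the ductus became 5468 (normexp), 871 (only the groups compared) and 614 (limit under 1.5), and 921 to 2176. The 902 of the aorta became 190 (median centring), 0 (limma on only the groups compared) and 1497 (limit under 1.5), and 478 to 1532. The 55 of the difference became 33 (median centring), 89 (replicate block) and 153 (limit under 1.5). Without single arrays, related genes called numbered 0 to 1 (near-term vessels), 0 to 1 (aorta stages), 2 to 6 (ductus at birth) and 0 to 2 (aorta at birth), and other markers 0 to 3 (near-term vessels), 1 to 3 (aorta at birth) and 0 to 2 (difference). With normexp, related genes called for the ductus at birth went from 3 to 14 and other markers from 3 to 10. Whether replicate numbers mark animals is not given: 6 of 12 pairs correlated above 0.1 (-0.59 to 0.82) and 5 of 12 were closest to their own number, which does not show pairing and does not establish its absence. The replicate block kept the sign of all 24 member differences.

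Signal over background limits CCR3, and with 4 arrays per group small differences were not detectable.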
